A study of Mus musculus with 19 samples.

Results

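The genes of the neuromuscular junction were examined in primary p53/MCA sarcomas of the mouse leg. The 10 members were selected by symbol, with no threshold on a measured value, from the 48795 gene identifiers measured. They are the muscle acetylcholine receptor subunits Chrna1, Chrnb1, Chrnd, Chrng and Chrne, the kinase gene Musk, its adaptor Dok7, the scaffold gene Rapsn, the acetylcholinesterase gene Ache and its collagen tail Colq. All 10 were above the lowest value of the data in at least 10 of the 19 tumors and could be tested. RNA sequencing covered 19 untreated tumors, 11 from Rag2-/- mice, which lack mature T and B cells, and 8 from immune-competent Rag2+/- littermates. In both groups an adenovirus, Adeno-sgp53-Cas9, carried Cas9 and a guide against the tumor suppressor gene Trp53 into the gastrocnemius, and 300 µg of the carcinogen MCA followed in mice aged 6 to 10 weeks. Tumors of 70 to 150 mm3 were taken, 1 library per tumor, and Rag2-/- and Rag2+/- mice differed in no other labelled factor. The virus acts on the cells it reaches within the muscle, so a bulk tumor can hold edited cells, unedited cells and muscle fibers. The tumors were treated as separate animals, since each label carries its own number and the study plotted each tumor as a mouse of its own, and they are named here by their library code (S41 to S60).

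The neuromuscular junction is the contact at which a motor axon releases acetylcholine onto a muscle fiber. The fiber answers through a pentamer of receptor subunits that is packed under the nerve ending by a machinery of agrin, Lrp4, MuSK, Dok7 and rapsyn. Fetal and denervated muscle builds the receptor with the gamma subunit from Chrng, while innervated adult muscle replaces it with the epsilon subunit from Chrne. The alpha, beta and delta subunits belong to both forms. Acetylcholinesterase, anchored in the cleft by its collagen tail, ends the signal.

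Promoter sequence is shown for 4 members, because the receptor genes and Musk are textbook targets of myogenic factors that bind the E-box (CANNTG, the same on both strands). RefSeq promoter windows on GRCm38.p6 were at hand for 7 of the 10 members (Chrna1, Chrnb1, Chrng, Chrne, Musk, Dok7 and Ache). Each window runs from 250 bases before to 50 bases after a transcript start. The 160 bases before the start are printed 5′ to 3′ on the strand of the gene, with E-boxes in capitals and, in Chrne, the N-box (CCGGAA, searched on both strands), an element known from synaptic genes, in capitals too. The Chrna1 stretch is chr2:73580339-73580498 (minus strand), that of Chrng chr1:87205651-87205810 (plus strand), that of Chrne chr11:70619195-70619354 (minus strand) and that of Musk chr4:58285802-58285961 (plus strand). The last 22 bases of the Chrne stretch lie in a first exon of another annotated transcript.
Chrna1: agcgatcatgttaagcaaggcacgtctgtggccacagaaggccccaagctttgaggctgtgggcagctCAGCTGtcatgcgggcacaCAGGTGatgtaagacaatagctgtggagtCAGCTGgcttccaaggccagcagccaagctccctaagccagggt
Chrng: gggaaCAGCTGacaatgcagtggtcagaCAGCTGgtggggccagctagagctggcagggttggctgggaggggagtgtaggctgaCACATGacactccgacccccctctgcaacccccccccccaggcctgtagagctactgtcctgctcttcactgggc
Chrne: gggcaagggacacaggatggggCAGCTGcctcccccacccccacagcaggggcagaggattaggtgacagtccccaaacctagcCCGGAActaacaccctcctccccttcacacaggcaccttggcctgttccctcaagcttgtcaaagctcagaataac
Musk: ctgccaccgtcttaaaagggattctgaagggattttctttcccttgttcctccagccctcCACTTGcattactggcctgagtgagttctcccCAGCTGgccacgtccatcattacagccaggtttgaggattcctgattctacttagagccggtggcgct

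At least 1 E-box was found in a window of each of the 7 members, where 72.3% of the 32851 RefSeq windows of 300 bases held one. Dok7 had windows at the chromosome 5 starts 35056766 and 35057072, with 1 and 0 E-boxes, and was counted by the first. At least 3 were found in 4 members, Chrna1, Chrnb1, Chrng and Musk, against 17.6% of all windows. The CAGCTG form of the E-box, counted among the E-boxes as well, occurred at 2 places in Chrna1 and in Chrng and once in Chrne and in Musk, where 16.3% of all windows held at least 1 and 1.90% at least 2. The N-box was found in Chrne alone among the 7, beginning at −76 with the transcript start as 0, and 14.9% of all windows held one. A match is a description of letters only, and binding was not measured.

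Values are log2 FPKM, the fragments on a gene relative to its length and to the depth of the library, with upper-quartile normalization and a pseudocount of 0.1, so a gene without fragments lies at the floor of −3.32. FPKM is per length, so levels of different genes may be set side by side. Depth, estimated from the steps between low values, was 24.8 to 33.8 M fragments on genes in 18 tumors and 5.23 M in S41, a Rag2-/- tumor. In the plotted comparisons of the study 15 of these tumors appear, and S41, S46, S51 and S56 do not. Rag2 itself was above the floor in all 19 tumors, with a median of −0.16 in Rag2-/- and −1.13 in Rag2+/- tumors, and since the value covers the whole gene it does not check the deletion. The T cell gene Cd3e was at the floor in all 11 Rag2-/- tumors and at −0.61 to 2.90 in the 8 Rag2+/- tumors. Genes of the mesenchymal tumor list (8 genes, among them Col1a1 and Pdgfra) had a mean value of 5.60 to 8.11 over the 19 tumors. Over 15 genes of mature muscle fibers the mean ran from 3.48 to 10.6 in Rag2-/- and from 5.82 to 12.2 in Rag2+/- tumors, so all the tumors held muscle transcripts and in widely different amounts.

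Receptor alpha and beta subunits were the most abundant of the 10 transcripts. Chrna1 had a lowest value of −0.75, a median of 2.81 and a highest value of 4.64 in Rag2-/- tumors, and 1.91, 3.94 and 4.74 in Rag2+/- tumors. The median over all tumors, 2.88 on the log2 scale, corresponds to 7.26 normalized FPKM. Chrnb1, which carries the beta subunit, ran from 0.71 through 2.81 to 4.52 in Rag2-/- and from 2.58 through 3.74 to 5.09 in Rag2+/- tumors. In both genes S46 was the lowest tumor and S51 the highest of the Rag2-/- group, and the groups overlapped. The levels of both subunits did not differ beyond their spread over tumors, since Chrna1 lay above Chrnb1 in 7 of 19 tumors and the mean difference was −0.14 ± 0.51 (SD, n = 19).

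The delta and gamma subunit genes, neighbors on chromosome 1 with 4586 bases between them, were much lower. Chrnd was at the floor in 2 Rag2-/- tumors (S46 and S48) and in the Rag2+/- tumor S53, had a median of −0.93 in Rag2-/- and 0.60 in Rag2+/- tumors, and reached 0.19 and 2.55. Chrng, the fetal subunit, ran from −2.80 (S46) through −1.68 to 0.02 (S41) in Rag2-/- tumors. In Rag2+/- tumors it ran from the floor (S53) through 0.29 to 1.55 (S52). The Rag2+/- tumors S55, S58 and S60 lay within the Rag2-/- range for both genes, S53 was at or below its lower end, and every Rag2-/- tumor lay below the Rag2+/- median. In linear units Chrna1 exceeded Chrnd by 3.91 to 79.5 times over the 16 tumors with Chrnd above the floor, with a median of 11.5, while its ratio to Chrnb1 stayed within 0.32 to 1.48 over all 19. The upper ratios rest on few Chrnd fragments.

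Across all 19 tumors Chrne, the adult subunit, had the lowest median of the receptor genes and the widest range of them, 6.14 log2 units. It ran from the floor (S41 and S48) through −1.87 to 1.86 (S51) in Rag2-/- tumors and from the floor (S53) through 0.64 to 2.82 (S59) in Rag2+/- tumors. Its Rag2+/- median lay above those of Chrnd (0.60) and Chrng (0.29) in that group. Both groups held tumors at the floor. Above −1.2 the Rag2-/- group held S47 (1.33) and S51 alone, so the upper part of the overlap rests on these.

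Among the genes that cluster the receptor, Musk, the receptor tyrosine kinase that agrin activates through Lrp4, ran from −1.72 (S46) through 1.65 to 4.82 (S51) in Rag2-/- and from −0.20 (S53) through 2.93 to 4.90 (S56) in Rag2+/- tumors. Dok7, the adaptor that activates MuSK from inside the cell, was lower, from −2.79 (S48) through −1.18 to 1.77 (S51) and from −2.90 (S53) through 0.77 to 3.18 (S56). Rapsn, whose product ties receptors to each other and to the cytoskeleton, ran from 0.36 (S46) through 1.68 to 4.09 (S51) and from 0.95 (S53) through 2.85 to 4.96 (S56). For all 3 genes S51 was the highest Rag2-/- tumor and S53 and S56 were the ends of the Rag2+/- group. With S51 inside the Rag2+/- range, the groups overlapped.

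The esterase genes spread likewise. Ache ran from −2.52 (S43) through 0.27 to 2.33 (S51) in Rag2-/- tumors and from −0.67 (S58) through 1.79 to 4.18 (S56) in Rag2+/- tumors. Colq was at the floor in S41 and S53, had a median of −1.85 in Rag2-/- and 0.21 in Rag2+/- tumors, and reached −0.42 (S51) and 2.61 (S56). For each of the genes 4 of the 8 Rag2+/- tumors lay within the Rag2-/- range. Ache shares 98 exonic bases with Gm42456 on the opposite strand, which was at the floor in every tumor. Colq shares 199 with Gm49387, for which there is no value, so reads in that stretch may be counted under either gene. Whether the library kept strand is not given in the sources used here.

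**Figure D1:**
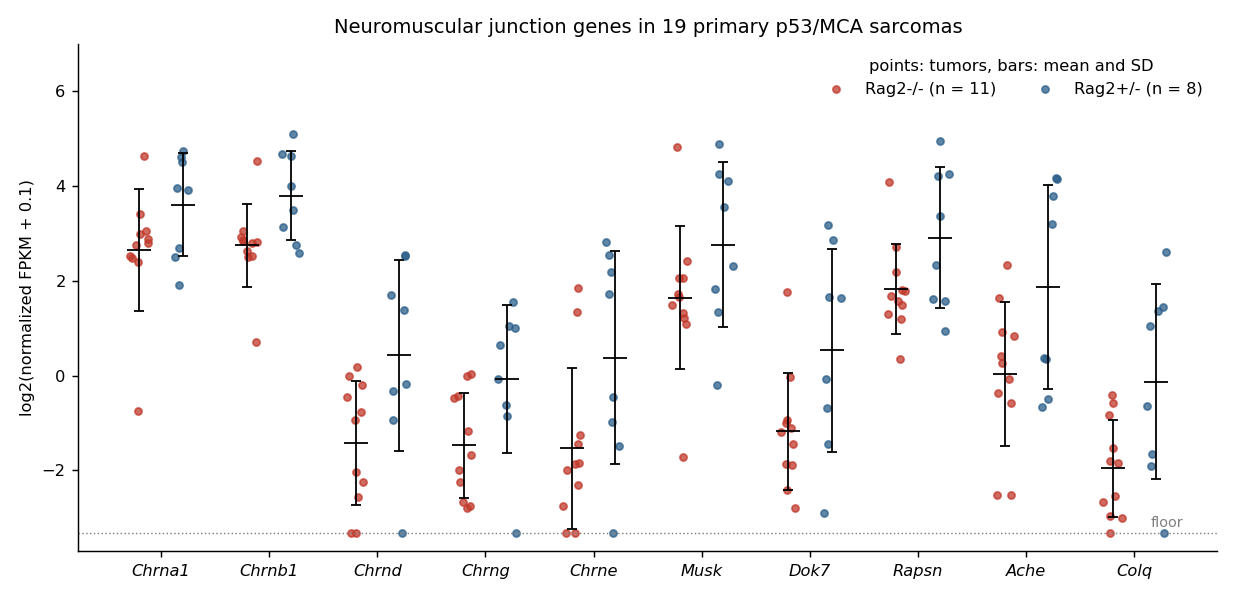
Values of the 10 junction genes in each tumor on the log2(normalized FPKM + 0.1) scale, with red points for the 11 Rag2-/- and blue points for the 8 Rag2+/- tumors; black bars are the mean and SD, and the dotted line is the floor. Chrna1 and Chrnb1 lie highest, Chrne and Colq have the lowest medians over all 19 tumors, and the groups overlap for every gene.

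In order of their median over 19 tumors the genes were Chrna1, Chrnb1, Musk, Rapsn, Ache, Chrnd, Chrng, Dok7, Chrne and Colq. Neighbors in this order were compared within tumors. Rapsn lay above Ache in 19 of 19 tumors (1.48 ± 1.07, SD of the log2 difference, n = 19) and Chrnb1 above Musk in 17 of 19 (1.07 ± 0.88). Ache lay above Chrnd in 15 of 19 tumors, by 1.45 ± 1.42. The other neighbors differed by 0.46 or less on average, each with an SD larger than the mean, so their order is not beyond the spread between tumors. S56 was the highest tumor for 7 of the 10 genes.

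Rag2-/- tumors, from mice without mature T and B cells, were then compared with Rag2+/- tumors. All 10 genes had a lower mean in Rag2-/- tumors, where 43.2% of all genes tested did. Of the 10, 0 passed the test at an adjusted p under 0.05 (limma with Benjamini-Hochberg adjustment over 17610 genes). That threshold was passed by 17 genes lower in Rag2-/- tumors (0.0965% of those tested) and by 0 higher (0%), so few genes of any kind were called. At an unadjusted p under 0.05, 7 of the 10 members were lower, where 8.5% of all genes were lower and 6.57% were higher. The median log2 difference, Rag2-/- minus Rag2+/-, was −1.55 over the 10 members and 0.07 over all genes tested. These genes move together between tumors, so the 7 are not 7 separate observations.

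In size, the log2 difference was −1.92 for Chrne (SE 0.85, limma p = 0.0346, 3.78-fold lower in Rag2-/- tumors). Chrnd differed by −1.85 (SE 0.72, limma p = 0.0180), Colq by −1.83 (SE 0.67, limma p = 0.0133) and Ache by −1.83 (SE 0.79, limma p = 0.0308). Dok7 differed by −1.70 (SE 0.73, limma p = 0.0307), and the fetal subunit Chrng by −1.40 (SE 0.58, limma p = 0.0260). Among the more abundant genes Chrnb1 differed by −1.05 (SE 0.39, limma p = 0.0151). The genes whose p exceeded 0.05 were Rapsn at −1.07 (SE 0.52, limma p = 0.0543), Musk at −1.11 (SE 0.70, limma p = 0.126) and Chrna1 at −0.95 (SE 0.52, limma p = 0.0842), the last at −0.61 without S46. Adjusted p-values ran from 0.322 to 0.408 by limma, and 9 to 11 of the 11 Rag2-/- tumors lay below the Rag2+/- median of each gene. These are differences on the log2(value + 0.1) scale, which understates those of genes near the floor. With a pseudocount of 1 the differences of the 5 low genes were smaller, −0.999 for Dok7, −0.98 for Chrnd, −0.97 for Chrne, −0.88 for Colq and −0.64 for Chrng. The differences of Chrne, Chrnd, Colq and Ache at a pseudocount of 0.1 lay within their SEs of each other.

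Single tumors moved the count of members with an unadjusted limma p under 0.05. When each tumor was left out in turn it ran from 3 to 10. It was 3 without S52, without S56 or without S59, all Rag2+/- tumors with high junction genes, and 10 without S51 (Rag2-/-) or without S53 (Rag2+/-). The count over all genes moved the same way, so the swing was not confined to the junction genes. Genes lower at that p were 1496 of 17610 with all tumors. They were 924 of 17445 without S52, 609 of 17544 without S56 and 676 of 17419 without S59. Without S51 they were 2470 of 17477, and without S53 2207 of 17497. With the 15 tumors that the study plotted the count of members was 3, where 1689 of 17844 genes tested were lower at that p. With a pseudocount of 0.01 the count of members was 3 as well, where 1429 of 17610 genes were lower. The mean was lower in Rag2-/- tumors for all 10 members in each of these fits, and 0 members passed the adjusted threshold in any of them.

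Muscle content moved with these differences. The mean of the 15 mature fiber genes, such as Acta1, Ckm and Ttn, in Rag2-/- tumors was 7.12 ± 1.89 (SD, n = 11) against 9.29 ± 2.31 (SD, n = 8) in Rag2+/- tumors, and the means differed by −2.17 (p = 0.0400, exact permutation, two-sided). All 15 had a lower mean in Rag2-/- tumors, with a median log2 difference of −2.22, and 0 passed the adjusted threshold. An unadjusted limma p under 0.05 was found for 12, where 8.5% of all genes were lower at that p. The mean of 10 genes of developing or regenerating muscle, such as Myog, Myh3 and Tnnt2, was −0.15 ± 1.27 (SD, n = 11) against 1.31 ± 1.58 (SD, n = 8), and these differed by −1.47 (p = 0.0411, exact permutation, two-sided). In a bulk tumor, fewer muscle fibers and less junction RNA per fiber cannot be told apart.

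With the mature fiber mean of each tumor as a covariate in the limma fit, the median difference of the 10 members was −0.12. The difference was then negative for 8 members, where it was negative for 50.5% of all genes, and 0.06 for Musk and for Rapsn. The unadjusted limma p of the members ran from 0.268 (Chrnb1) to 0.923 (Musk). None of the 10 had a limma p under 0.05, where 4.45% of all genes did in either direction, and 0 passed the adjusted threshold. The 95% intervals stayed wide, from −1.17 to 0.88 for Chrne and from −1.30 to 0.59 for Chrng. The fiber genes come from the same libraries as the members, and genotype and fiber content differ together in these tumors.

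**Figure D2:**
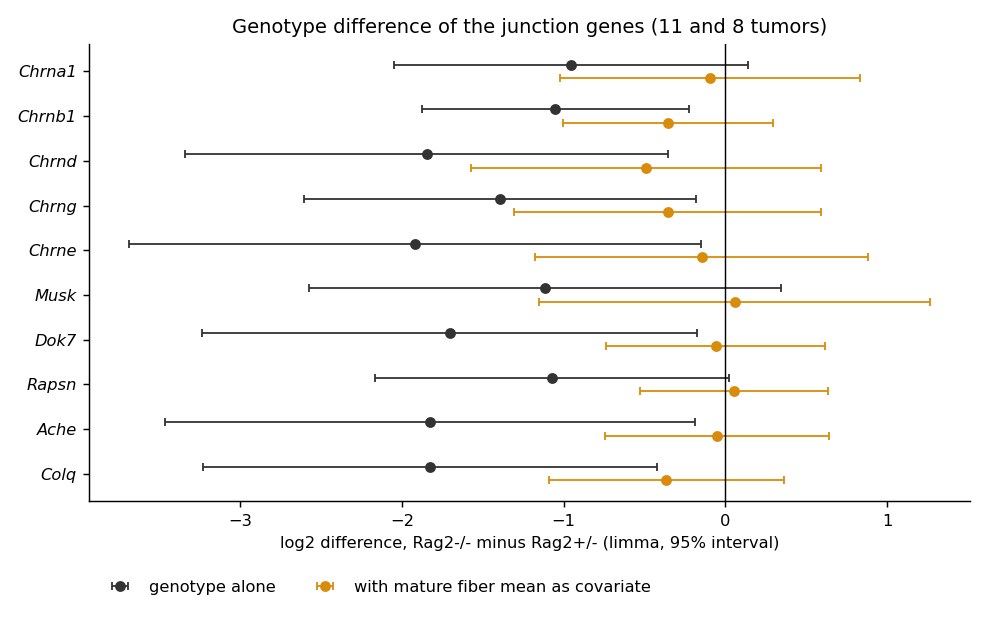
Log2 difference between 11 Rag2-/- and 8 Rag2+/- tumors for each junction gene (x axis, log2 units), with 95% intervals from limma, in black for the genotype alone and in orange with the mature fiber mean as a covariate. All 10 black points lie below 0, from −1.92 (Chrne) to −0.95 (Chrna1), and with the covariate all intervals include 0.

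The fetal and the adult subunit were set against each other in each tumor. Chrng lay below Chrne in 12 of the 19 tumors, above it in 6, and both were at the floor in S53. Chrng as a percentage of the normalized FPKM of both ran from 12.5% in S47 to 92.9% in S50 over the 16 tumors with both genes above the floor, but S50 had an estimated 2.03 fragments on Chrne, and the next highest was S54 at 78.4%. In S41 and S48 only Chrne was at the floor.

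In Rag2-/- tumors the log2 value of Chrng minus that of Chrne ran from −2.50 (S47) through −0.35 to 3.35 (S41), with a mean of 0.07 ± 1.74 (SD, n = 11). In Rag2+/- tumors it ran from −2.27 (S60) through −0.17 to 1.64 (S54), with a mean of −0.45 ± 1.32 (SD, n = 8). The groups overlapped almost wholly. The difference of 0.52 was smaller than either spread (p = 0.486, two-sided, exact permutation over 75582 choices), and leaving out single tumors moved it from 0.20 (without the shallow S41) to 0.82 (without S54). It was 0.17 among the 16 tumors with both genes above the floor and 0.92 with a pseudocount of 0.01.

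The extremes differ in how many fragments stand behind them. In S41 an estimated 12.2 fragments fell on Chrng and 0 on Chrne, and at that depth 3 fragments on Chrne would be worth 0.387 normalized FPKM. The estimated Chrng value in that tumor was 2.37-fold that amount. The counting error of the 12.2 fragments was not included, so this is no lower bound. In S48 an estimated 3.80 fragments fell on Chrng, so no ratio is given. In S50 Chrng exceeded Chrne by 2.31 log2 units with an estimated 45.8 and 2.03 fragments, and in S54 by 1.64 with 107.5 and 17.2. At the adult end S47 had 24.5 fragments on Chrng and 99.8 on Chrne, and S60 had 41.8 and 128.5.

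**Figure D3:**
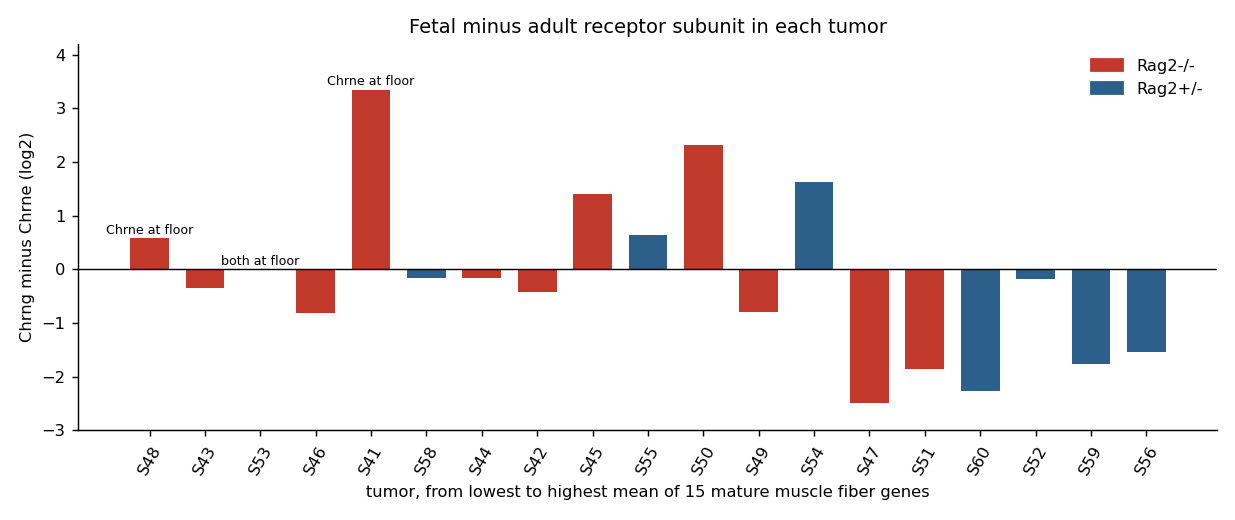
Log2 value of Chrng (fetal subunit) minus Chrne (adult subunit) in each tumor, as bars from 0, with tumors in order of the mean of 15 mature fiber genes; red bars are Rag2-/- and blue bars Rag2+/- tumors. The highest bar is S41 (3.35, Chrne at the floor), the lowest is S47 (−2.50), and the 5 tumors with the highest fiber means all lie below 0.

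Both subunits rose with the muscle lists across tumors. Over 19 tumors Chrng correlated with the mature fiber mean at r = 0.81 and rho = 0.78 (permutation p = 4e-05 for r and 0.00028 for rho) and with the developing muscle mean at r = 0.87 and rho = 0.84 (permutation p = 1e-05 and 5e-05). Chrne correlated with the mature fiber mean at r = 0.90 and rho = 0.87 (permutation p = 1e-05 for both) and with the developing muscle mean at r = 0.81 and rho = 0.78 (permutation p = 6e-05 and 0.00019). The smallest p that the permutations can give is 1e-05, and the adjusted p over the 4 relations was at most 6e-05 for r and 0.00028 for rho. Without S56 and S48, the tumors farthest from the median of each list, r was 0.78 and 0.85 for Chrng and 0.89 and 0.75 for Chrne.

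Within genotypes the relations had the same sign. In the 11 Rag2-/- tumors r with the mature fiber mean was 0.67 for Chrng (permutation p = 0.0211) and 0.79 for Chrne (permutation p = 0.00401). In the 8 Rag2+/- tumors it was 0.83 for Chrng (exact permutation p = 0.00578) and 0.95 for Chrne (exact permutation p = 0.00236). With the developing muscle mean it was 0.75 and 0.62 in Rag2-/- tumors (permutation p = 0.0107 and 0.0422) and 0.91 and 0.88 in Rag2+/- tumors (exact permutation p = 0.000670 and 0.00429). The genes and the lists share library and muscle content.

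The difference between the subunits was related to the fiber mean as well, a comparison added after their values were seen. Chrng minus Chrne fell as the mature fiber mean rose, with r = −0.47 and rho = −0.48 over 19 tumors (permutation p = 0.0428 and 0.0411, and 0.0513 and 0.0494 adjusted over 6 relations). It did not pass within genotypes, at r = −0.35 in the 11 Rag2-/- tumors (permutation p = 0.294) and −0.63 in the 8 Rag2+/- tumors (exact permutation p = 0.0964), and without S56 and S48 r was −0.43. With the developing muscle mean r was −0.28 and rho −0.26 (permutation p = 0.238 and 0.279). The 5 tumors with a mature fiber mean above 10 (S51, S52, S56, S59 and S60) all had more Chrne than Chrng, and 4 of these 5 were Rag2+/-. Of the other 14, Chrng was higher in 6, Chrne in 7, and 1 had neither.

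**Figure D4:**
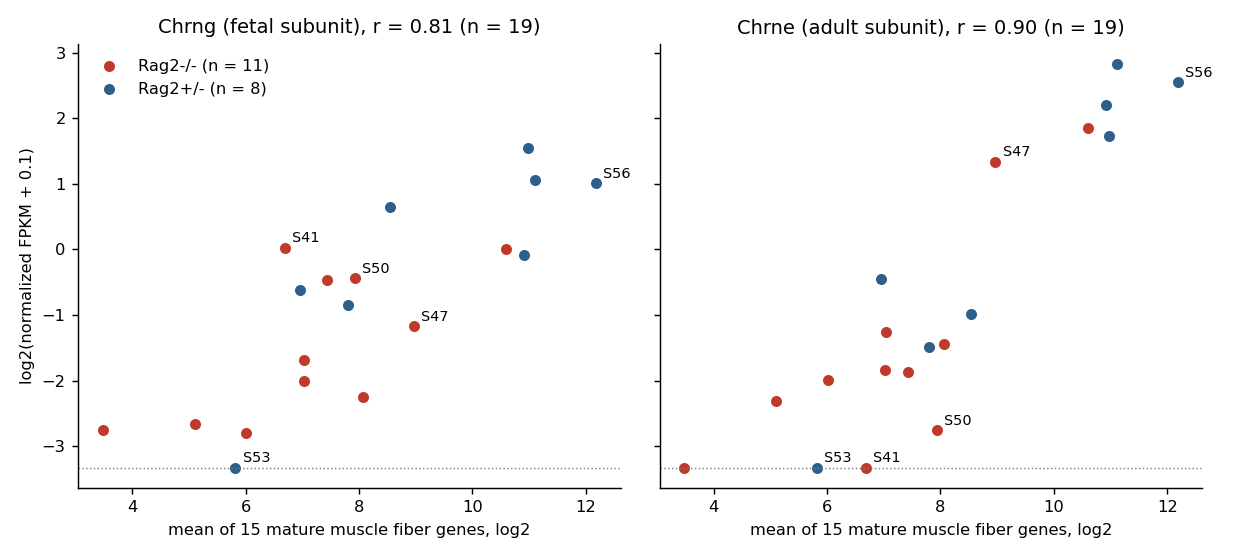
Log2 value of Chrng (left) and Chrne (right) against the mean log2 value of 15 mature fiber genes, each point a tumor, red for Rag2-/- and blue for Rag2+/-; the dotted line is the floor. Both rise with the fiber mean (r = 0.81 and 0.90), and S41 and S50 lie high for Chrng and low for Chrne while S47 lies high for Chrne.

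The other members followed the fiber mean to differing degrees, given here as a description over 19 tumors. Ache (r = 0.95), Dok7 (0.95), Colq (0.93) and Rapsn (0.92) followed it most closely, Chrnd (0.84) and Chrnb1 (0.80) less, and Chrna1 and Musk (0.74 each) least. The order differed by genotype, since r was 0.43 for Musk and 0.52 for Chrna1 in the 11 Rag2-/- tumors but 0.97 and 0.94 in the 8 Rag2+/- tumors, where Chrnd and Chrng had 0.83 each. The difference between genotypes was not tested. For Musk and Chrna1 the tumors farthest below and above the line on the fiber mean were S46 and S48, both Rag2-/-. Per log2 unit of the fiber mean, Chrne rose by 0.83, Ache by 0.82 and Dok7 by 0.76, while Chrna1 rose by 0.41 and Chrnb1 by 0.36. All 10 slopes were below 1, with those of the alpha and beta subunits the lowest.

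Tumors off this line were the same for several genes. S46, a Rag2-/- tumor with a fiber mean of 6.01, lay 2.98 log2 units below the line for Chrna1, 2.75 below for Musk and 1.76 below for Chrnb1, but 1.13 above it for Ache. S48, the tumor with the lowest fiber mean (3.48), lay 2.74 above the line for Musk, 1.36 above for Rapsn and 1.20 above for Chrna1. In S48 Chrna1 was at 2.40 and Musk at 2.43 while Chrnd and Chrne were at the floor. The largest departures of Chrng were 1.60 above in S41 and 1.38 below in S49.

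Between members, Pearson r over the 19 tumors ran from 0.62 for Chrna1 with Ache to 0.96 for Dok7 with Rapsn. The neighboring genes Chrnd and Chrng had r = 0.95, and Chrna1 had r = 0.92 with Chrnb1 and with Musk. Chrne had r = 0.93 with Dok7 and 0.91 with Rapsn and with Colq, but 0.68 with the fetal subunit Chrng and 0.67 with Chrna1. The genes were measured in the same libraries, which differ in muscle content, and the part of muscle content in these correlations was not tested.

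**Figure D5:**
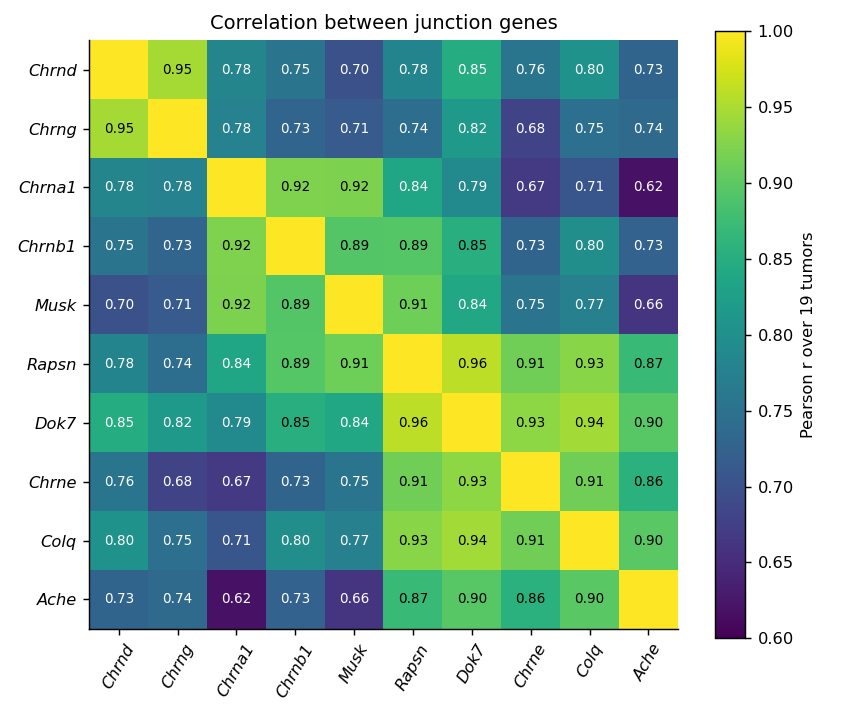
Pearson r between the log2 values of each pair of junction genes over 19 tumors, as a grid of colors from 0.6 (dark) to 1 (light). The pair Chrnd and Chrng (0.95), the genes Chrna1, Chrnb1 and Musk (0.89 to 0.92) and the genes Rapsn, Dok7, Chrne, Colq and Ache (0.86 to 0.96) stand out as lighter blocks.

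Among all 17610 genes tested, the gene most like Chrng over the 19 tumors was Chrnd (r = 0.95), followed by Adprhl1 (0.89), Tceal7 (0.88), the cardiac and embryonic muscle troponin gene Tnnt2 (0.88) and the M-band gene Myom3 (0.87). The genes most like Chrna1 were Chrnb1 and Musk (0.92 each), then Acsl6 (0.91), Igdcc4 (0.89) and Tmem117 (0.89). For Chrne the 5 were Trpt1 and Ddit4l (0.96 each), and Ccng1, Aamdc and Atp2b3 (0.95 each), none of them a member. Trpt1, Ddit4l, Ccng1, Aamdc and Atp2b3 had medians of 1.24, 2.22, 5.69, 4.10 and −1.95.

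Other genes of the junction pathway showed no common direction. A lower mean in Rag2-/- tumors was found for 10 of those tested, and for 43.2% of all genes. Of 22 fixed in a list, 21 could be tested, 0 passed the adjusted threshold, and the median log2 difference was 0.04 against 0.07 over all genes. The muscle sodium channel gene Scn4a differed by −2.20 (SE 0.90, limma p = 0.0234) and the neuregulin receptor gene Erbb3 by −0.83 (SE 0.33, limma p = 0.0223). Agrn, which encodes the agrin that the nerve, and other cells, secrete, differed by 0.90 (SE 0.38, limma p = 0.0265), higher in Rag2-/- tumors. Lrp4, the agrin receptor, differed by −0.07 (SE 0.24) and Utrn, the synaptic relative of dystrophin, by 0.24 (SE 0.21). Scn4a followed the mature fiber mean at r = 0.98, while for Agrn, Lrp4 and Utrn r was −0.66, −0.32 and −0.59.

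Lists of nerve and of denervated muscle genes were compared between the genotypes as well. Chat and Slc18a3, which make and load acetylcholine and whose transcripts reside in the motor neuron cell body, were at the floor in all 19 tumors. Slc5a7, the choline transporter gene of the same list, was above the floor in 13 of 19 tumors, reached 2.35, and had a higher mean in Rag2-/- tumors (0.76, SE 0.66, limma p = 0.269). Of the 8 tested nerve and Schwann cell genes 7 had a lower mean in Rag2-/- tumors, where 43.2% of all genes did. The median log2 difference of the 8 was −0.97, and 0 passed the adjusted threshold. The mean of the whole list of 10 ran from −1.74 to 0.22 in Rag2-/- and from −1.65 to 1.26 in Rag2+/- tumors, and the myelin gene Ncmap had the lowest p (difference −1.69, SE 0.40, adjusted limma p = 0.186). Among 8 denervation responsive genes 7 had a lower mean in Rag2-/- tumors and 0 passed the adjusted threshold (median −1.04). Of the 7, Ncam1 differed by only −0.04 (SE 0.58). Trim63 and Fbxo32, ubiquitin ligases of muscle atrophy, followed the mature fiber mean at r = 0.94 and 0.93. Runx1 (r = −0.57) and Ncam1 (r = −0.35) did not rise with it, and both are also made by cells other than muscle. The part of nerve or denervation in the level of Chrng was not tested.

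Most neuronal acetylcholine receptor subunit genes were at the floor in more than 9 tumors. Of 11 such genes 2 could be tested, and Chrna3, Chrna6 and Chrnb3 were at the floor in all 19 tumors. Chrna10 differed by −1.94 (SE 0.70, adjusted limma p = 0.322) and followed the mature fiber mean at r = 0.88, and Chrnb2 differed by 0.68 (SE 0.30, adjusted limma p = 0.322) and had r = −0.57.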

How the data were processed

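RNA of 19 tumors was sequenced in 150 base pair paired-end reads (NEBNext Ultra II, NovaSeq). The authors mapped reads with the Omicsoft aligner (mouse B38), quantified Ensembl R86 genes, and deposited log2 FPKM values after upper-quartile normalization, as the study's methods state. The submitters' processing notes list Trimmomatic, STAR, HTSeq and the mm10 build, without a role for each, and the values alone do not tell which was used. The lowest value, −3.32 in all 19 libraries, shows that 0.1 had been added before the log2. Strand setting is not given in the sources used here. Each column matched 1 tumor by its label. Tests for counts could not be applied to such values.

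Genes above the floor in at least 10 of the 19 tumors (17610 genes) were compared by limma (version 3.58.1, R 4.3.3) with a trend on intensity and p-values adjusted by Benjamini-Hochberg, called at an adjusted p under 0.05. With the 15 tumors of the study's plots the filter was at least 8. Single measures were compared by exact permutation, and correlations by 100000 permutations or, in the 8 Rag2+/- tumors, by all of them. Replicates are 1 library per tumor, and depth (5.23 to 33.8 M fragments) was estimated from low values with GENCODE vM21 (GRCm38) transcript lengths. Of low values, 70.3% to 89.7% per tumor were whole fragments to within 0.05. Fragment numbers are therefore estimates, and no interval was drawn from them. All tests were tried on simulated data.

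Symbols came from a gene name table, for 48349 of 48795 identifiers. The genes named are the 10 members, the genes of the lists and the 5 genes most like Chrng, Chrne and Chrna1. The values of 1 gene of the lists are not reported here. Cd3e belongs to the T cell list, and Rag2 was added as the deleted gene. The members and lists were chosen with earlier results of these data known. Alternatives were the 15 tumors, each tumor left out, other filters, pseudocounts of 1 and 0.01, quantile normalization, a median shift, other variance models, the fiber covariate, and other summaries of the lists. The relations of Chrng minus Chrne to the muscle lists were added after seeing the data. The remaining steps ran in Python 3.11.15 with scipy 1.17.1, numpy 2.4.6, matplotlib 3.10.9 and pandas 2.3.3. The study's exome data were not analysed here.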

Additional observations from a re-analysis of the deposited data

How the results depend on the processing

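The number of genes of any kind with an adjusted p under 0.05 (17) was 40 with the 15 tumors that the study plotted, 34 without a filter on low values and 4 among genes with a mean log2 value above 0, where fewer genes were tested. It ran from 12 to 29 when single tumors were left out, and was 29 without S51. None of the 10 members was among the called genes in any of these fits. Among genes with a mean log2 value above 0, only 5 of the 10 were tested. With the mature fiber mean as a covariate the differences of Musk and Rapsn were 0.0565 and 0.0559, the only members whose sign turned, and the cause was not tested. Their other alternatives, and those of the other 8 members, the subunit difference and the 4 planned correlations kept their direction and their side of the threshold. No paired analysis was possible because the labels give no replicate numbers, and the numbers assigned here follow accession order and pair no tumors. Depth limits Chrnd, Chrne, Chrng and Colq in the low tumors, where a few fragments set the value, and most of all in S41.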
